A study of Mus musculus with 6 samples.

Results

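Genes of the nasal respiratory and olfactory epithelium were followed in RNA of dissected mouse palatal shelves. The set is a list of 28 symbols that mark ciliated cells, secretory cells and the olfactory lineage. The symbols were chosen by name and not by their values, but with earlier results of these data known. Their Ensembl gene IDs were looked up in the deposited table of 55631 genes, and 26 were found. The levels of Dnah5 and Muc5b were not analysed here. The shelves came from E14.5 embryos, 3 control and 3 KO. Control embryos carried the allele pair p130Casfl/fl, whose loxP sites flank exons of the gene for the adhesion adaptor p130Cas, with no Cre in the label. KO embryos had p130Casfl/fl together with CAG-Cre, a recombinase under a promoter active in nearly all cell types. Whether embryos were pooled, or how many litters they represent, is not in the labels, so each p below reflects only the scatter among these 6 samples, part of which may be technical. Values per library are listed in the order of replicates 1, 2 and 3 of each genotype.

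The nasal cavity lies directly above the palatal shelves, and the upper face of a shelf is lined by nasal epithelium once the shelves lift. Respiratory epithelium holds multiciliated cells, whose motile cilia depend on the factor Foxj1 and beat with axonemes driven by dynein arms, and secretory cells that coat the surface with antimicrobial proteins and mucins. Olfactory epithelium lies deeper in the nose. Its neurons detect odours through receptors that signal by a G protein, adenylyl cyclase and a cyclic nucleotide channel, and its progenitors depend on transcription factors that also pattern the forebrain and eye.

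Stretches before the transcription start are shown for members that the values below turn on, read from RefSeq promoter windows of GRCm38.p6 that span 250 bases before to 50 after a start. Windows were given for 20 of the 28 symbols, and for these 30 starts were searched on both strands. Tekt1 and Dnai1 stand for the ciliary genes, with the GTTGCC core of the RFX motif on either strand in capitals for Tekt1 (chr11:72361883-72361942, minus strand) and the full RFX X-box for Dnai1 (chr4:41569769-41569793, plus strand).

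Tekt1: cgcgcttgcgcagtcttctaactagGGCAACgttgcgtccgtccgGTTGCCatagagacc

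Dnai1: ctgtcgGTTGCTGGGTAACcgcgtc

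Of the 25 bases shown for Dnai1, 19 lie in an annotated exon of the same gene, listed as Dnaic1. The GTTGCC core was found in 12.5% of all 32851 windows and the X-box in 1.53%. Among members the core was in 5 of 20 (Tekt1, Ano2, Gng13, Otx2 and Six3), and the X-box in 3 of 20 (Dnai1, Ano2 and Six3). The X-boxes of Six3 and Ano2 contain the core. Its variant GTTGCT was in 14.8% of windows and in 6 of 20 members (Ccdc39, Dnah5, Dnah9, Dnai1, Otx2 and Sox2). Bpifa1 (chr2:154142820-154142879, plus strand) and Reg3g (chr6:78468875-78468934, minus strand) are shown because they were the secretory members that were detected, with TATAAA in capitals.

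Bpifa1: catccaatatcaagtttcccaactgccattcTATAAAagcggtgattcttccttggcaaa

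Reg3g: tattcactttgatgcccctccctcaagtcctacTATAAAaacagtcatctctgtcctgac

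TATAAA was in 13.6% of all windows and in 3 of 20 members, the other being Otx2. Its first base lay 29 bases before the start of Bpifa1 and 27 before that of Reg3g, and Reg3g had a further match on the other strand. Cnga2 (chrX:71991763-71991810, plus strand), Gng13 (chr17:25717057-25717105, plus strand) and Ano2 (chr6:125711101-125711148, plus strand) encode parts of odour transduction, and CCCNNGGG, the palindromic core of the EBF motif, is in capitals.

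Cnga2: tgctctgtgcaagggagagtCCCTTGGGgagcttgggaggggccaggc

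Gng13: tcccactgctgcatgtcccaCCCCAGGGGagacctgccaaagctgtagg

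Ano2: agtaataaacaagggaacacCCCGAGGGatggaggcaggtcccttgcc

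CCCNNGGG was in 13.7% of all windows, in 7 of the members' 30 windows and in 7 of 20 members, the others being Lhx2, Tekt1, Ccdc40 and Dnah5. In Gng13 the capitals hold overlapping matches. The forkhead motif GTAAACA was in 0 of 20 members and 3.65% of all windows. The SOX motif AACAAT was in 1 (Dnah5) and 10.7%, the OTX motif TAATCC in 2 (Ano2 and Otx2) and 7.06%, and the LHX motif TAATTA in 2 (Emx2 and Otx2) and 5.29%. The RFX core, its variant and TATAAA were added to the search after the promoters were seen. Shares of all windows compare with counts over the members' 30 windows, which were 7 for GTTGCC, 6 for its variant, 3 for the X-box, 3 for TATAAA, 3 for the LHX motif, 2 for the OTX motif, 1 for the SOX motif and 0 for the forkhead motif, since a member with several windows has more chances to match. All of these are matches of letters and do not show binding.

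Each library had between 21500 and 21869 genes above 0. The smallest deposited value above 0 was between 0.1001 and 0.118 FPKM (fragments scaled for gene length and library size), so values near this are at the edge of what the table lists. Depth is unknown, because the table holds no counts. Markers of the labelled tissue were present. All 14 genes of a palatal mesenchyme list and all 25 of an oral epithelium list were above 0 in all 6 libraries, led by Barx1, Prrx1, Twist1 and Msx1 and by Krt14, Krt5, Krt15 and Sfn. Bcar1, which encodes p130Cas, stood at 1.798, 1.97 and 2.09 FPKM across the controls against 1.69, 1.69 and 1.31 FPKM across KO shelves. The KO values lay below all controls, but the log2 difference of -0.21 ± 0.11 (SE; limma, adjusted p = 1.00) did not pass, and exons outside the loxP sites can still count. KO replicate 2 was the only library with Xist above 0, at 61.01 FPKM, and the only one with Ddx3y listed at 0. The libraries also differed in their cartilage genes, the summed level of 14 cartilage genes being 304 to 644 FPKM over control shelves and 149 to 758 FPKM over KO shelves.

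Most of the set was detected, with a share above 0 in all libraries close to that of all protein-coding genes. Detection was uneven across its cell types. Of the 26 genes, 18 were above 0 in all 6 libraries, 4 were above 0 in some, and 4 were listed at 0 in all. Over all 21673 protein-coding genes of the table, 68.0% were above 0 in all libraries and 25.2% were listed at 0 in all, and over all gene IDs 34.4% were above 0 in all. Averaged over the 6 libraries, 14 of 26 genes reached 1 FPKM, beside 59.2% of protein-coding genes. Transcription factors were the best detected, with all 6 above 0 in all libraries, and 6 of 7 ciliated genes were too. Of 7 olfactory signalling genes 4 were above 0 in all libraries. The secretory genes divided sharply, with 2 of 6 above 0 in all libraries and the other 4, Bpifb1, Muc5ac, Scgb1a1 and Scgb3a1, listed at 0 in all. Rsph1, at a mean of 0.955 FPKM, and Emx2, at 0.844 FPKM, lay just under 1 FPKM, and Lhx2 at 1.202 FPKM just above it.

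**Figure D1:**
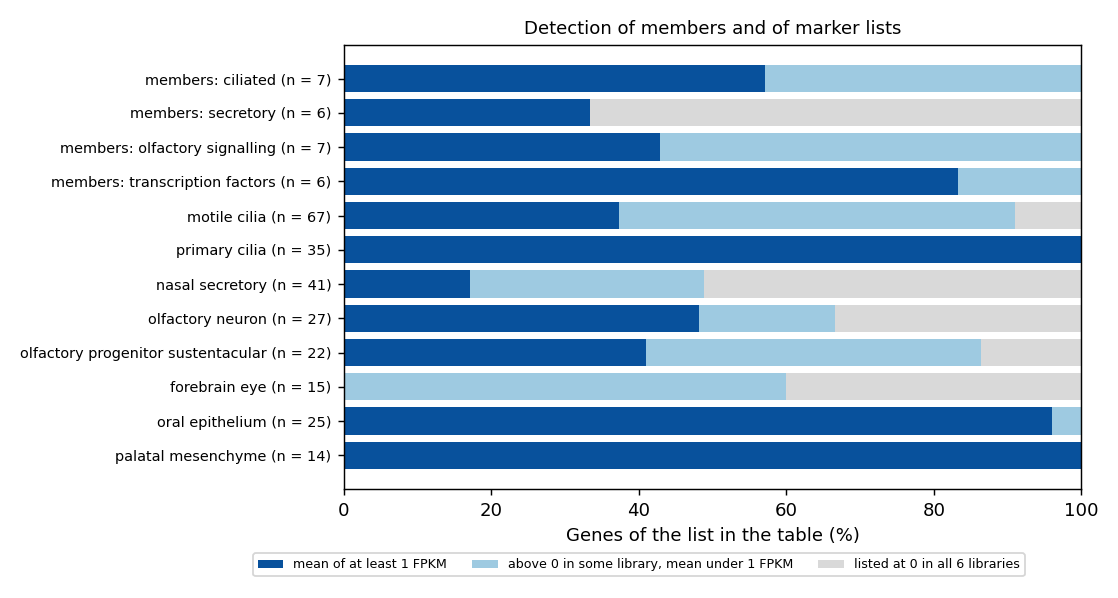
Share of genes in each list, on the horizontal axis in percent of the genes in the table, whose 6 libraries averaged 1 FPKM or more (dark), were above 0 in some library with a lower mean (light), or were listed at 0 in all (grey). The upper 4 bars divide the 26 members, and the other bars are marker lists, with primary cilia and palatal mesenchyme genes all averaging above 1 FPKM.

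The ciliated members were led by the master factor of motile cilia. Foxj1 (ENSMUSG00000034227), on chromosome 11 (minus strand, 116330704 to 116335399) in GRCm38, stood at 9.47, 6.103 and 7.83 FPKM across the controls against 8.03, 13.5 and 4.08 FPKM across KO shelves. KO replicate 2 was the highest of the 6 libraries and KO replicate 3 the lowest, so the KO values enclosed all 3 control values. In bulk tissue, fewer cells of a type and less RNA per cell cannot be told apart. Tekt1 (ENSMUSG00000020799), a filament protein of the axonemal doublets on chromosome 11 (minus strand, 72344722 to 72362442), stood at 2.37, 1.74 and 2.12 FPKM across the controls against 1.91, 3.01 and 1.54 FPKM across KO shelves. It had the same highest and lowest library. Rsph1, a radial spoke head protein on chromosome 17 (minus strand, 31255019 to 31277383), stood at 0.959, 0.811 and 0.882 FPKM across the controls against 1.07, 1.64 and 0.361 FPKM across KO shelves. Again KO replicate 2 was highest and KO replicate 3 lowest, with a ratio of 4.54 between them.

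Other axonemal members did not share this order. Ccdc39 and Ccdc40 encode the ruler proteins that set the repeat of the axoneme. Ccdc39 stood at 2.84, 2.399 and 2.31 FPKM across the controls against 2.84, 2.32 and 2.82 FPKM across KO shelves. The highest value was 1.23 times the lowest, and 16.9% of its exonic bases also lie in exons of Ttc14 on the other strand. The strand setting is not given in the sources used here, so reads of such pairs cannot be told apart. Ccdc40 stood at 1.96, 1.85 and 2.31 FPKM across the controls against 3.26, 1.77 and 2.503 FPKM across KO shelves, highest in KO replicate 1. Dnai1, an intermediate chain of the outer dynein arm listed in the annotation as Dnaic1, was between 0.362 and 0.721 FPKM. Dnah9, a dynein heavy chain of the outer arm, was listed at 0 in 5 libraries and at 0.163 FPKM in KO replicate 1.

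**Figure D2:**
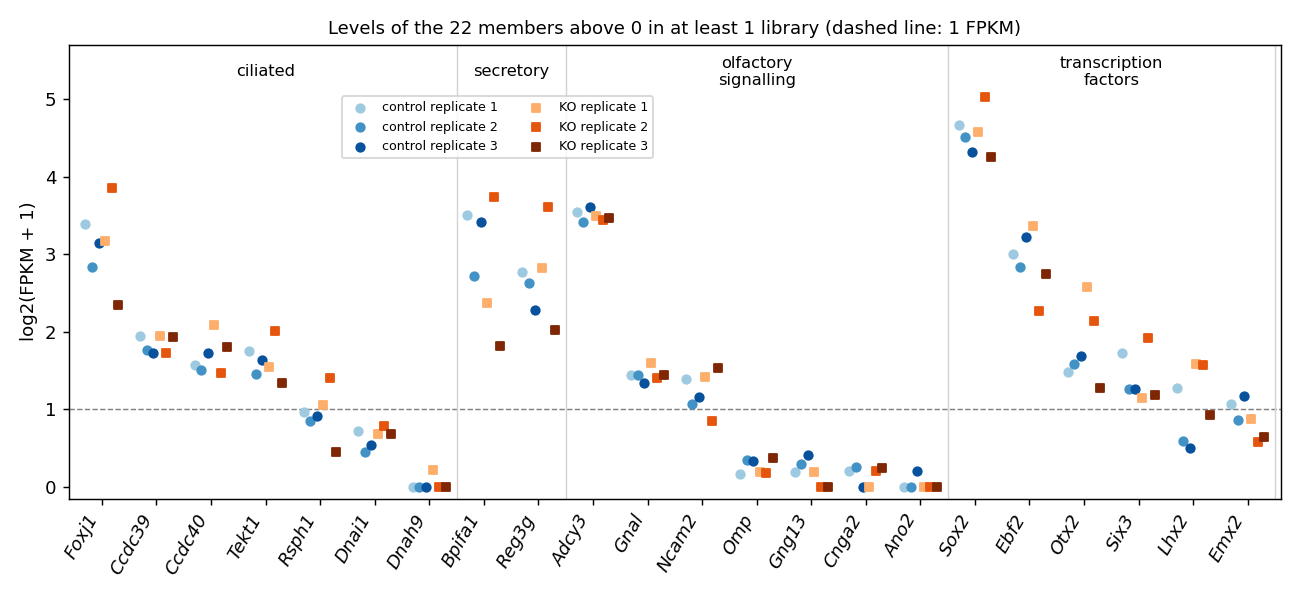
Level of each of the 22 members above 0 in at least 1 library, as log2(FPKM + 1) on the vertical axis, with circles for control and squares for KO libraries. Foxj1, Bpifa1 and Reg3g have KO replicate 2 at the top and KO replicate 3 at the bottom, while Adcy3, Gnal and Ccdc39 have 6 values close together.

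A wider list of motile cilia genes was read beside the members. Of 67 genes, 61 were above 0 in some library and 25 had a mean of at least 1 FPKM. The highest means were those of Tppp3 (17.2 FPKM), Tekt2 (13.4 FPKM), Rsph3a (9.83 FPKM) and Dnal1 (5.18 FPKM). KO replicate 2 was highest and KO replicate 3 lowest in 11 of these 25 genes, beside 5.13% of all 14714 genes averaging 1 FPKM or more. This order was noticed in the values and then counted. Among the 11 were Mcidas, the factor that commits cells to many cilia, at 3.14 and 1.06 FPKM in KO replicates 2 and 3, Ccno, which acts in making their basal bodies, at 5.52 and 1.62 FPKM, and Deup1, a scaffold for the same step, at 2.65 and 1.04 FPKM, named after their values were seen. The 4 genes with the highest means were not among them. Hydin, Spef2, Tekt3, Sntn, Dnah3 and Dnah12 were listed at 0 in all libraries. Genes of the primary cilium, the immotile cilium that most mesenchymal cells carry, gave 0 of 35 with this order. They were led by Arl3, Ift20, Ift27 and Kif3a, and their summed level was 339 to 358 FPKM over control shelves and 339 to 356 FPKM over KO shelves.

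The secretory members were either clearly present or listed at 0. Bpifa1 (ENSMUSG00000027483), a secreted surfactant of airway epithelium also called SPLUNC1, lies on chromosome 2 (plus strand, 154142880 to 154149219). It stood at 10.4, 5.596 and 9.67 FPKM across the controls against 4.17, 12.3 and 2.53 FPKM across KO shelves. The KO values lay on both sides of the controls, and KO replicate 2 was 4.87 times KO replicate 3, the widest spread among the 14 members with a mean of at least 1 FPKM. Reg3g (ENSMUSG00000030017), a C-type lectin that kills Gram-positive bacteria, lies on chromosome 6 (minus strand, 78466269 to 78468872). It stood at 5.85, 5.21 and 3.85 FPKM across the controls against 6.06, 11.1 and 3.05 FPKM across KO shelves. The ratio of KO replicate 2 to KO replicate 3 was 3.66. The genes at 0 were Scgb1a1 and Scgb3a1, secretoglobins of club and other secretory cells, Muc5ac, a gel-forming mucin, and Bpifb1, a relative of Bpifa1.

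Of 41 further nasal secretory genes in the table, 20 were above 0 in some library and 7 had a mean of at least 1 FPKM. Cyp2f2, a cytochrome of club cells, stood at 19.97, 16.6 and 23.8 FPKM across the controls against 22.6, 22.7 and 12.2 FPKM across KO shelves. Wfdc2, a secreted protease inhibitor, had a mean of 18.4 FPKM, Lypd2 of 11.5 FPKM and Foxa1, a forkhead factor of many endodermal and glandular epithelia, of 8.32 FPKM. KO replicate 3 was the lowest library for 5 of these 7 genes, among them all 4 just named, but KO replicate 2 was the highest for 0. All 8 Bpif relatives on the list, and the odorant-binding and lipocalin genes Obp1a, Lcn11, Lcn13 and Lcn14, were listed at 0 in all libraries.

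Oral epithelium genes had, like Foxj1 and Bpifa1, their highest mean in KO replicate 2 and their lowest in KO replicate 3. The geometric mean of 24 oral epithelium genes was 17.6, 18.7 and 16.05 FPKM across the controls and 16.96, 22.5 and 13.8 FPKM across KO shelves. The controls did not share an order, since control replicate 2 was the highest control in this mean but the lowest for Foxj1 and Bpifa1. KO replicate 2 was highest and KO replicate 3 lowest in 13 of these 24 genes, beside the 5.13% of all genes. The same held for 5 of the 14 members tested below (Foxj1, Tekt1, Bpifa1, Reg3g and Sox2). This order was noticed in the values and then counted, so its counts are descriptive only. KO replicate 2 alone was highest in 20 of the 24, in 6 of the 14 members and in 17.1% of all genes, and KO replicate 3 alone was lowest in 15 of the 24, 6 of the 14 and 17.0%. Leukocyte genes were also highest in KO replicate 2, in 9 of 9 tested, but lowest in KO replicate 3 in 0 of 9. The ratio of KO replicate 2 to KO replicate 3 had a median of 1.62 over the oral epithelium genes, with a highest value of 2.29 for Krt6a. Foxj1, Bpifa1, Reg3g and Rsph1 lay above all of them, and so did Otx2, at 2.38. Over motile cilia genes the median was 1.54 and the highest value 3.83. The median was 0.9197 for primary cilia and 0.828 for palatal mesenchyme genes. These are ratios of 1 library to another, so no test was made of them.

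Dividing each member by that epithelial mean narrowed some spreads and widened others. That mean was itself highest in KO replicate 2 and lowest in KO replicate 3. The changes therefore follow largely from the library orders already given, and they test nothing further. Sox2, which is expressed widely in oral and nasal epithelium, went from a highest value 1.75 times the lowest to 1.21 times. For Foxj1 the ratio went from 3.31 to 2.04, for Reg3g from 3.66 to 2.25, and for Bpifa1 from 4.87 to 3.296. It widened for Ncam2, from 2.36 to 3.83, for Emx2, from 2.54 to 3.56, for Ebf2, from 2.45 to 3.25, and for Ccdc40, from 1.84 to 2.44. Ccdc39 went from 1.23 to 1.97 and Adcy3 from 1.16 to 1.65. KO replicate 2 was also the only library with the female pattern of sex-linked genes, Xist above 0 and Ddx3y at 0, as given above. Sex cannot be told apart from the other ways in which that library differs, and its part in the values was not tested.

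**Figure D3:**
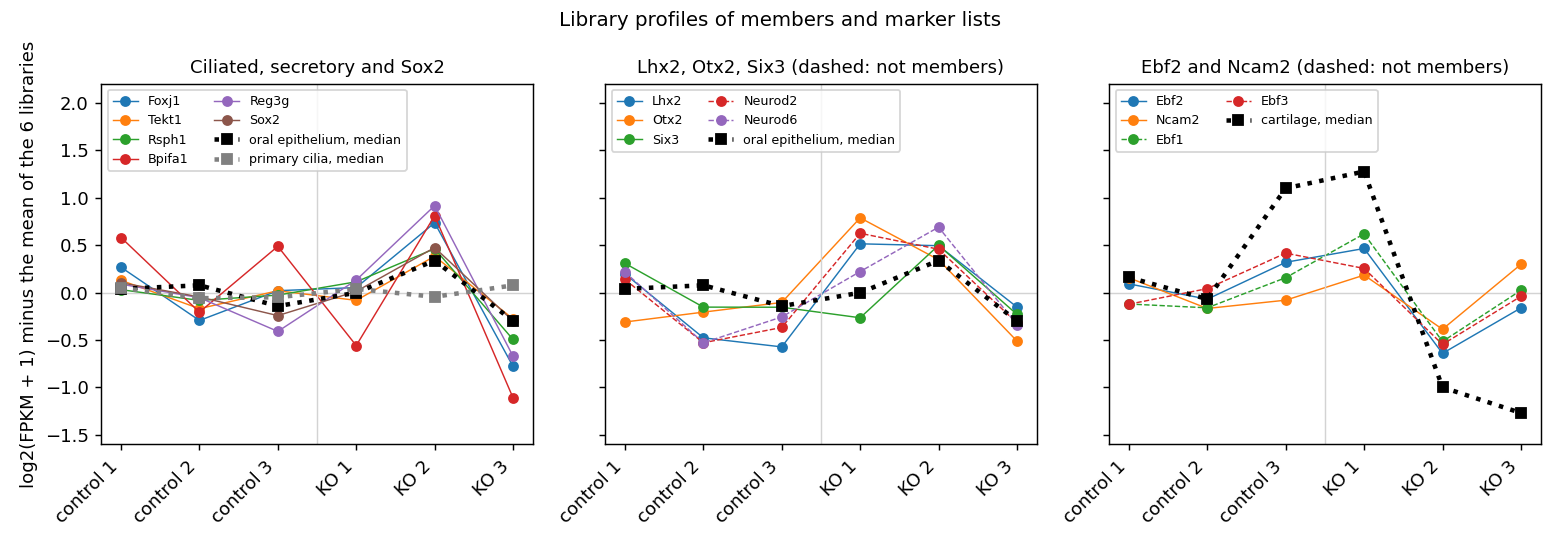
Deviation of each gene from its mean over the 6 libraries, in log2(FPKM + 1) on the vertical axis, by library on the horizontal axis. Solid lines are members, dashed lines are genes outside the set, dotted lines with squares are medians of marker lists, and lines only join the values of a gene. On the left, Foxj1, Tekt1, Rsph1, Bpifa1, Reg3g and Sox2 peak in KO replicate 2 and are lowest in KO replicate 3. The ciliated members Ccdc39, Ccdc40 and Dnai1, which are not drawn, do not share this order. In the middle Lhx2 is low in control replicates 2 and 3. Emx2, which is not drawn, is highest in control replicate 3 and lowest in KO replicate 2. On the right Ebf2 and cartilage genes are high in KO replicate 1.

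The olfactory signalling members ranged from the steady Adcy3 and Gnal, through Ncam2, to a set at the edge of detection. Adcy3 (ENSMUSG00000020654), the adenylyl cyclase of odour transduction that also sits in primary cilia of other cells, lies on chromosome 12 (plus strand, 4133103 to 4213525) and stood at 10.7, 9.68 and 11.2 FPKM across the controls against 10.2, 9.88 and 10.03 FPKM across KO shelves. All 6 values lay within a ratio of 1.16, although 22.1% of its exonic bases are shared with Cenpo on the other strand. Gnal, the stimulatory G protein alpha subunit of olfactory and striatal neurons, stood at 1.72, 1.73 and 1.54 FPKM across the controls against 2.03, 1.64 and 1.72 FPKM across KO shelves. Its spread was also narrow, although 7.63% of its exonic bases are shared with Mppe1 on the other strand. Ncam2, a cell adhesion molecule of olfactory axons, stood at 1.62, 1.099 and 1.23 FPKM across the controls against 1.68, 0.803 and 1.896 FPKM across KO shelves, lowest in KO replicate 2 and highest in KO replicate 3, the reverse of Foxj1.

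Markers of mature olfactory neurons were near the smallest listed value. Omp, the olfactory marker protein that defines mature sensory neurons, was above 0 in all 6 libraries but only between 0.126 and 0.2903 FPKM. Gng13, the G protein gamma subunit of olfactory and taste cells, stood at 0.142, 0.232 and 0.335 FPKM across the controls against 0.1397, 0 and 0 FPKM across KO shelves. Its groups were set apart only by the small gap between control replicate 1 and KO replicate 1, near the smallest listed values. Gng13 was too low to be tested. Of its exonic bases 51.6% are shared with Chtf18 on the other strand. Cnga2, the cyclic nucleotide channel, was above 0 in 4 libraries with a highest value of 0.2005 FPKM, and Ano2, the chloride channel that amplifies its current, in 1, at 0.157 FPKM. The order of libraries at these levels was not read. Of 1132 olfactory receptor genes, 10 were above 0 in some library and 2 in all.

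Of 27 further olfactory neuron genes, 18 were above 0 in some library and 13 had a mean of at least 1 FPKM. The highest means were those of Gnai2 (203 FPKM), Ldb1 (129 FPKM), Gap43 (33.98 FPKM) and Gnao1 (17.2 FPKM), genes that other neurons and mesenchyme also express. Of the list's genes 9 were listed at 0 in all libraries, among them the channel subunits Cnga4 and Cngb1 and the receptor chaperones Rtp1 and Rtp2. Of 22 progenitor and sustentacular genes, 9 had a mean of at least 1 FPKM, with Hes6 (27.5 FPKM), Cbr2 (26.97 FPKM) and Eya2 (19.8 FPKM). Cbr2, a carbonyl reductase of airway epithelium, and Eya2 had KO replicate 2 highest and KO replicate 3 lowest. Cyp2g1, a cytochrome typical of sustentacular cells, was listed at 0.

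Among the transcription factors, Sox2 was by far the highest. Sox2 (ENSMUSG00000074637), a factor of epithelial and neural progenitors on chromosome 3 (plus strand, 34650405 to 34652461), stood at 24.3, 21.8 and 18.9 FPKM across the controls against 22.7, 31.7 and 18.1 FPKM across KO shelves. Its order of libraries resembled that of the oral epithelium genes given above.

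Otx2, Six3, Lhx2 and Emx2 pattern the nose together with the forebrain and eye. Otx2 (ENSMUSG00000021848), on chromosome 14 (minus strand, 48657677 to 48673819), stood at 1.79, 2.002 and 2.22 FPKM across the controls against 4.98, 3.402 and 1.43 FPKM across KO shelves, with KO replicates 1 and 2 above all controls and KO replicate 3 below them. Six3 stood at 2.302, 1.400 and 1.398 FPKM across the controls against 1.22, 2.77 and 1.28 FPKM across KO shelves, highest in KO replicate 2 and control replicate 1. Lhx2 (ENSMUSG00000000247), on chromosome 2 (plus strand, 38339281 to 38369733), stood at 1.41, 0.514 and 0.417 FPKM across the controls against 2.01, 1.97 and 0.895 FPKM across KO shelves. KO replicates 1 and 2 were the highest, and control replicate 1 lay above KO replicate 3. Emx2 stood at 1.103, 0.817 and 1.25 FPKM across the controls against 0.836, 0.492 and 0.566 FPKM across KO shelves, with all but 1 KO value below the controls. Antisense or neighbouring genes share 8.79% of the exonic bases of Emx2, 5.03% of Six3 and 3.98% of Otx2.

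Forebrain genes outside the set were low and uneven across the same libraries. Neurod6, a factor of cortical neurons, stood at 0.675, 0 and 0.208 FPKM across the controls against 0.682, 1.33 and 0.142 FPKM across KO shelves. Neurod2 was at 1.22 and 0.979 FPKM in KO replicates 1 and 2, at 0.587 FPKM in control replicate 1 and at most 0.155 FPKM in the other libraries. Of 15 forebrain and eye genes, 9 were above 0 in some library and 0 had a mean of at least 1 FPKM, with a summed level of 1.47 to 3.39 FPKM over control shelves and 1.95 to 5.16 FPKM over KO shelves. Mitf, a pigment cell factor, made up 0.927 FPKM of it on average and was even across libraries. The defining eye factors Rax and Six6 were at 0. Of 10 pituitary genes, 7 were at 0, among them Lhx3 and Pou1f1. Emx2 did not share the library order of Neurod6. It was highest in control replicate 3, at 1.25 FPKM, and lowest in KO replicate 2, at 0.492 FPKM. The part of forebrain RNA in the values of Lhx2, Otx2, Six3 and Emx2 was not tested.

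Ebf2, a helix-loop-helix factor of olfactory neurons that mesenchyme, bone and fat precursors also express, followed other libraries. Ebf2 (ENSMUSG00000022053), on chromosome 14 (plus strand, 67233292 to 67430918), stood at 6.98, 6.14 and 8.34 FPKM across the controls against 9.33, 3.81 and 5.69 FPKM across KO shelves. Ebf2 was highest in KO replicate 1 and lowest in KO replicate 2, and 6.12% of its exonic bases are shared with Gm10860 on the other strand. Its relatives Ebf1, Ebf3 and Ebf4, named after their values were seen, had means of 7.27, 13.98 and 14.1 FPKM, well above Omp. Ebf1 stood at 6.38, 6.18 and 7.95 FPKM across the controls against 11.3, 4.61 and 7.15 FPKM across KO shelves, with the same highest and lowest library as Ebf2. Ebf3 was highest in control replicate 3 and also lowest in KO replicate 2. The cartilage genes were also highest in KO replicate 1, and lowest in KO replicate 3 by summed FPKM.

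Genotype was then compared across the 6 libraries, which asks whether these genes differ between KO and control shelves. None of the 14 members averaging 1 FPKM or more differed beyond the spread between replicates. In limma 0 of 14 passed at an adjusted p under 0.05, where 0.333% of all 14714 tested genes passed (0.326% higher and 0.00680% lower in KO), and 0 of 14 had an unadjusted p under 0.05, beside 4.01% of all. The groups did not overlap for 0 of 14, beside 9.06% of all tested genes. Differences are in log2(FPKM + 1), a scale that makes changes of low genes look smaller than they are, and 11 members were above 0 and 3 below, with a median difference of 0.059, beside -0.021 over all tested genes. The 4 tested ciliated members had a median difference of 0.036, the 3 olfactory signalling members 0.062 and the 5 transcription factors 0.12, and the 2 secretory members lay on either side of 0.

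**Figure D4:**
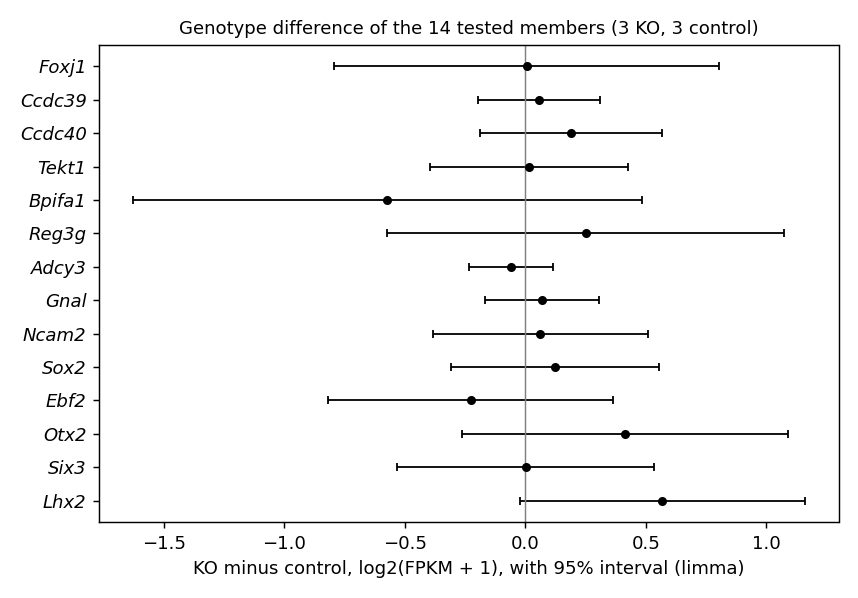
Difference between KO and control in log2(FPKM + 1) on the horizontal axis for each of the 14 tested members, with 95% intervals from limma (3 libraries a group). Every interval includes 0, and those of Adcy3, Gnal and Ccdc39 are the narrowest while that of Bpifa1 is the widest.

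The width of what could be seen differed between members. Adcy3 was at 10.5 ± 0.781 FPKM for control shelves against 10.05 ± 0.172 FPKM for KO shelves (SD, n = 3 each), a log2 difference of -0.059 ± 0.075 (SE; limma, adjusted p = 1.00), with a 95% interval of -0.23 to 0.11. Foxj1 was at 7.801 ± 1.68 FPKM for control shelves against 8.53 ± 4.73 FPKM for KO shelves (SD, n = 3 each), a log2 difference of 0.0059 ± 0.34 (SE; limma, adjusted p = 1.00). Its interval of -0.79 to 0.80 spans changes between 0.578 and 1.75 times the control level of FPKM + 1, so a sizeable change in either direction would not have been seen. Bpifa1 was at 8.55 ± 2.58 FPKM for control shelves against 6.35 ± 5.25 FPKM for KO shelves (SD, n = 3 each), a log2 difference of -0.57 ± 0.45 (SE; limma, adjusted p = 1.00) with an interval of -1.63 to 0.48. Without KO replicate 2 its difference was -1.12, and without KO replicate 3 it was -0.16, and neither passed. Without KO replicate 2 Foxj1, Tekt1, Reg3g, Sox2 and Six3 lay below 0 and Ebf2 above it, Foxj1 at -0.36 and Reg3g at -0.14. The residual SD of Foxj1, Bpifa1 and Reg3g was larger than that of 99%, 99.6% and 99.2% of tested genes, and that of Adcy3 larger than 19.8%.

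Lhx2 and Otx2 had the largest upward differences among the members as tested, and both moved with the libraries and settings used. Lhx2 was at 0.782 ± 0.5499 FPKM for control shelves against 1.62 ± 0.631 FPKM for KO shelves (SD, n = 3 each), a log2 difference of 0.57 ± 0.25 (SE; limma, adjusted p = 1.00), with an interval of -0.022 to 1.16 and p = 0.2 in the exact two-sided permutation test, whose smallest possible p is 0.1. Otx2 was at 2.01 ± 0.214 FPKM for control shelves against 3.27 ± 1.78 FPKM for KO shelves (SD, n = 3 each), a log2 difference of 0.41 ± 0.29 (SE; limma, adjusted p = 1.00) with an interval of -0.26 to 1.09. Without KO replicate 1 the difference of Otx2 was 0.12 and without KO replicate 3 0.77, and that of Lhx2 was 1.06 with a pseudocount of 0.1 FPKM. Forebrain genes were uneven over the same libraries, as given above. Ebf2 was at 7.15 ± 1.11 FPKM for control shelves against 6.28 ± 2.81 FPKM for KO shelves (SD, n = 3 each), a log2 difference of -0.23 ± 0.25 (SE; limma, adjusted p = 1.00). For Ccdc39, Gnal, Six3, Tekt1, Ncam2, Sox2, Ccdc40 and Reg3g the difference lay between 0.00092 and 0.25, and none passed.

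None of the wider lists held a called gene in limma. Of 25 tested motile cilia genes 12 were above 0 and 13 below, with a median of -0.00014. Of 35 primary cilia genes 26 were above 0 and 9 below (median 0.030), and 2 had an unadjusted p under 0.05. Of 7 nasal secretory genes 1 was above 0 and 6 below (median -0.10). Of 13 olfactory neuron genes 4 were above and 9 below (median -0.068), and of 9 progenitor and sustentacular genes 3 were above and 6 below (median -0.12), with 1 unadjusted p under 0.05. Of 24 oral epithelium genes 14 were above and 10 below (median 0.0065), of 14 palatal mesenchyme genes 9 and 5 (median 0.035), of 13 neuronal genes 5 and 8 (median -0.14), of 8 glial genes 3 and 5 (median -0.0077) and of 14 cartilage genes 1 and 13 (median -0.76). The cartilage median turned to 0.13 with library weights, and with a library left out it ran from -1.58 without KO replicate 1 to -0.36 without KO replicate 3. All 9 tested leukocyte genes were above 0, with a median of 0.57, but 0 were called. Without KO replicate 2 that median was 0.39. Their summed level was 65.1 to 81.9 FPKM over control shelves and 93.7 to 131 FPKM over KO shelves. The groups did not overlap for 8 of 9 leukocyte genes, beside 9.06% of all tested genes. The same held for 3 of 35 primary cilia, 1 of 9 progenitor and sustentacular, 1 of 13 neuronal and 1 of 14 cartilage genes. In the other lists it held for 0 tested genes. An unadjusted p under 0.05 in limma was found for 8 leukocyte, 2 neuronal and 1 cartilage gene, beside 4.01% of all tested genes. It was found for 0 of the motile cilia, nasal secretory, olfactory neuron, oral epithelium, palatal mesenchyme and glial genes tested.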

How the data were processed

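RNA of E14.5 palatal shelves was sequenced as 3 control and 3 KO libraries. The deposited values are FPKM, which the authors had scaled for gene length and library size, and the table holds no read counts. Per the submitters' processing notes, DESeq2 version 1.5.2 was used and the build was mm10. Aligner, counter, annotation and strand setting: not given in the sources used here.

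Groups came from the sample titles. Symbols and coordinates came from GENCODE M21 (GRCm38), which matched 50876 of 55631 IDs. The test was limma version 3.58.1 (R version 4.3.3) on log2(FPKM + 1) for the 14714 genes averaging 1 FPKM or more. Genotype was its only term, with eBayes and a trend, two-sided, and Benjamini-Hochberg adjustment over all tested genes at a threshold of 0.05. Exact permutation tests over the 20 assignments used scipy version 1.17.1. As alternatives the pseudocount (0.1 FPKM), the low-value filter (none, 0.1 or 5 FPKM), the scaling (quantile, median of ratios), the trend, library weights and a replicate block were varied, and each library was left out. Division by the oral epithelium mean was added after the data were seen.

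The members and lists were chosen with earlier results of these data known. All 28 members are accounted for. From each other list up to 4 genes of highest mean were named, and any further gene is said to be named after its values were seen, or illustrates genes at 0. A few list genes are counted but not reported by name here. The lists cover motile cilia, primary cilia, nasal secretory, olfactory neuron, olfactory progenitor and sustentacular, forebrain and eye, pituitary, taste, oral epithelium, palatal mesenchyme, neuronal, glial, leukocyte and cartilage genes.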

Additional observations from a re-analysis of the deposited data

How the results depend on the processing

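No member was called under any of the 15 alternatives, where the lowest adjusted p was 0.250 (limma). Over all tested genes 48 were higher and 1 lower in KO. With a filter at a mean of 5 FPKM, which tests fewer genes, these counts were 24 and 0. With no filter or a filter at 0.1 FPKM 67 or 65 genes were higher and 2 were lower, and the cause was not tested. Library weights gave 66 higher and 1 lower. With a single library left out the number higher ran from 32 to 48 and the number lower from 1 to 2. Among the differences of single members under these alternatives, 183 kept their sign and 19 reversed. With a pseudocount of 0.1 FPKM Foxj1 was at -0.0092 and Six3 at -0.017. Six3 was at -0.0041 with quantile normalization and -0.080 with library weights, where Ebf2 was at 0.14. With each library left out in turn the difference ran from -0.36 to 0.40 for Foxj1, -0.17 to 0.16 for Tekt1, -0.14 to 0.65 for Reg3g, -0.082 to 0.31 for Sox2, -0.25 to 0.15 for Six3, -0.51 to 0.038 for Ebf2 and -0.071 to 0.27 for Ncam2. Foxj1, Tekt1, Reg3g, Sox2 and Six3 took a negative sign, and Ebf2 a positive one, without KO replicate 2. The median over tested members ran from -0.0056 to 0.16 with a library left out. Detection at 0.2 or 1 FPKM in place of above 0 left 20 or 16 members in at least 1 library and 17 or 12 in all.

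Replicate numbers are shared by the groups, but the deviations of same-numbered libraries correlated at 0.0192, 0.305 and -0.241 for numbers 1 to 3, and only control replicate 2 and KO replicate 2 correlated best with their own number, so the numbers were not taken to pair the samples. With the replicate block 41 genes were higher, 1 was lower and 0 members were called. Depth is unknown, and no direction was read from values under 0.2 FPKM, which lie near the smallest listed value.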

Other observations

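Some receptor genes were above 0 among the few olfactory ones. Olfr78, a receptor also known from carotid body and blood vessels, stood at 0.311, 0.7704 and 1.32 FPKM across the controls against 0.312, 0.299 and 0.453 FPKM across KO shelves, highest in control replicate 3. Olfr543 was above 0 in all 6 libraries too, between 0.186 and 0.456 FPKM. Of 329 vomeronasal receptor genes 7 were above 0 in some library, with a highest value of 0.555 FPKM for Vmn2r29, and Trpc2, the channel of vomeronasal neurons, was listed at 0 in all.

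Trpm5, a cation channel of taste and tuft cells and of some olfactory neurons, was named after its values were seen and stood at 10.3, 9.91 and 11.9 FPKM across the controls against 11.2, 9.86 and 11.2 FPKM across KO shelves. All 6 values lay close together and above the values of all 9 genes of the taste list. Pou2f3, the factor that specifies tuft cells, reached 0.186 FPKM, Plcb2 was between 0.201 and 0.465 FPKM, and Gnat3 was listed at 0. Of the exonic bases of Trpm5 3.44% are shared with Tssc4 on the other strand. Of 9 taste genes 1, Itpr3, had a mean of at least 1 FPKM, at 4.41 FPKM, and of 10 pituitary genes 1, Pomc.

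A few neural genes, named after their values were seen, were highest in KO replicate 1. The neuron list as a whole was not, with a summed level of 165 FPKM in control replicate 3 against 153 FPKM in KO replicate 1. Nefm, a neurofilament subunit, was at 15.1 FPKM there and between 3.04 and 4.21 FPKM in the other 5 libraries. Slc17a6, a glutamate transporter, was at 1.39 FPKM there and at most 0.3900 FPKM elsewhere, and Pax6, a factor of eye, forebrain and olfactory placode, was at 1.34 FPKM there and at most 0.627 FPKM elsewhere. Otx2 and Lhx2 were also highest in that library. Six3 was lowest there, at 1.22 FPKM, and Emx2 was highest in control replicate 3. The part of neural RNA in these values was not tested.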
